A study of Mus musculus with 8 samples.

Results

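Mast cells and basophils are the cells that bind IgE on their surface and release histamine, and they were represented on these lymph node (LN) arrays by 7 genes. The genes were chosen by name: Kit, Cpa3, Cma1, Mcpt4, Tpsb2, Ms4a2 and Fcer1a. They have 9 probe sets that are annotated to 1 of them alone, out of 22626 probe sets tested, and each gene is given by its brightest probe set, as are the 12393 genes measured in all. RNA was taken from 8 pools of LN, each from 3 or more mice of either sex at 8 weeks of age, and each pool was run on 1 array. H3RKO mice carry a disrupted histamine H3 receptor gene (Hrh3) in all cells, on a C57BL/6 background, and C57BL/6 mice were the WT controls. H3RKO and WT untreated LN gave 2 arrays each. H3RKO CFA and WT CFA, 24 h after complete Freund's adjuvant, an oil emulsion with killed mycobacteria, gave 1 array each, and so did H3RKO CFA+PTX and WT CFA+PTX, in which mice also received pertussis toxin. The study asked whether loss of the receptor alters LN gene expression at baseline and early after these adjuvants.

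Mast cells mature in tissues under the growth factor that Kit, a receptor tyrosine kinase, recognises. Their granules hold histamine and proteases in complex with heparin, and tryptase and chymase mark the connective tissue type of mast cell. The high-affinity IgE receptor is assembled from an alpha chain that binds IgE (Fcer1a), a beta chain that amplifies the signal (Ms4a2) and the gamma chain Fcer1g, which other receptors share. Basophils carry the same IgE receptor with little Kit. In LN, mast cells lie mainly in the capsule, sinuses and T cell areas, and they are few compared with lymphocytes.

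The labels were checked against markers. The summed level of a list is given here as the mean log2 signal of its genes. T cell and B cell lists lay between 11.01 and 11.30 on all 8 arrays, as LN would have. Hrh3 had a log2 signal of 7.20 to 7.29 on the 4 arrays labelled H3RKO and 6.56 to 6.66 on the 4 labelled WT. The sources used here do not place its probe set relative to the disrupted part, so it does not check the genotype labels. A list of 8 salivary and lacrimal gland genes set WT CFA+PTX (5.34) and WT untreated 1 (9.68) apart from the other arrays (12.70 to 13.42). On those other arrays the gland list lay above the T cell and B cell lists, so these pools gave strong gland signal beside that of LN. The part of gland tissue in the mast cell signals was not tested. The mean of the neutrophil list (9 genes) was higher on every H3RKO array, 7.94 to 9.0, against 7.41 to 7.73 on the WT arrays. Its genes did not all follow, and in untreated LN Prtn3 was lower in H3RKO (6.24 and 6.53) than in WT (6.66 and 6.85). Main values on the mast cell genes are also given without the 2 gland-poor arrays, WT CFA+PTX and WT untreated 1. The arrays called CFA+PTX here carry PTX alone in their titles, while their descriptions and the methods of the study give both agents, and the descriptions were followed.

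Promoter sequences are shown for Cpa3 and Cma1, whose signals ran closely together over the arrays, and for Fcer1a, which ran with them less closely, as described further on. GATA factors, among them Gata2, drive mast cell and basophil genes. The 250 bases before the start were searched for the GATA motif on both strands, written as AGATAA, as AGATAG, as TGATAA or as TGATAG. RefSeq (GRCm38.p6) held this stretch for 6 of the 7 genes, and 5 of the 6 had a match. Of all promoters in the table, 26.5% of 32851 had one. In the sequences, given 5′ to 3′ along the gene, capitals mark the matched words.
Cpa3, chr3:20242182-20242431, minus strand: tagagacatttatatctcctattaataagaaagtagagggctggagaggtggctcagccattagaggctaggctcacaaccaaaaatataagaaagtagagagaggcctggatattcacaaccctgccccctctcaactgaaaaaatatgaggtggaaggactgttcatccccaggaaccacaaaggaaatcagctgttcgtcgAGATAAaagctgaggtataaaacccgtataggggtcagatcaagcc
Cma1, chr14:55944676-55944925, minus strand: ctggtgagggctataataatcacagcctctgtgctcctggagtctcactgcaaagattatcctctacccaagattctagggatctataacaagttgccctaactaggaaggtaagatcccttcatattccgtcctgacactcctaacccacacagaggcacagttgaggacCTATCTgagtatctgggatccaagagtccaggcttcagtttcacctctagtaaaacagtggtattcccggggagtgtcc
Fcer1a, chr1:173227230-173227479, minus strand: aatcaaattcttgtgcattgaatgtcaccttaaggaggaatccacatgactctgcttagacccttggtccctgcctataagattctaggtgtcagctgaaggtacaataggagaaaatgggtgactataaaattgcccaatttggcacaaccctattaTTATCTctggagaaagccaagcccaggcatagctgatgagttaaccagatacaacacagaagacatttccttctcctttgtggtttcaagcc
The match began 46 bases before the start in Cpa3, 79 in Cma1 and 92 in Fcer1a, the last 2 on the opposite strand. Mcpt4 had 1 match, 103 bases before its start, and Ms4a2 had 3, at 224, 37 and 11 bases. The start used for Ms4a2 lies inside its annotated gene, which reaches to base 11623790 in a window of 11623720 to 11623969. Its matches at 37 and 11 bases are therefore within the gene. The Cpa3 and Fcer1a windows also overlap their genes, but not at the matches. Kit had no match in this window. A match describes letters and was not tested as a site.

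The granule proteases spanned 0.41 to 0.63 log2 units over the 8 arrays. Their SDs were larger than those of most genes at a similar level, 92.9% of them for Cpa3, 84.3% for Cma1, 83.4% for Mcpt4 and 86.8% for Tpsb2. Cpa3, mast cell carboxypeptidase A, had a log2 signal of 9.26 and 9.75 in H3RKO untreated LN and 9.25 and 9.33 in WT untreated LN. After CFA it was 9.56 in H3RKO and 9.51 in WT, and after CFA+PTX 9.46 in H3RKO and 9.75 in WT. The highest signals thus came from an untreated H3RKO pool and from the WT CFA+PTX pool, and the lowest from both WT untreated pools and the other H3RKO untreated pool.

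Cma1, named chymase 1, followed nearly the same order. Its log2 signal was 9.14 and 9.52 in H3RKO untreated LN, against 9.11 and 9.26 in WT untreated LN. It was 9.35 in H3RKO CFA and 9.43 in WT CFA. It was 9.29 in H3RKO CFA+PTX and 9.49 in WT CFA+PTX. As for Cpa3, H3RKO untreated 2 and WT CFA+PTX were the highest arrays and WT untreated 1 the lowest.

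Mcpt4, the chymase of connective tissue mast cells, had a log2 signal of 9.22 and 9.57 in H3RKO untreated LN and 9.20 and 9.08 in WT untreated LN. Its treated arrays were 9.18 in H3RKO CFA, 9.14 in WT CFA, 9.32 in H3RKO CFA+PTX and 9.31 in WT CFA+PTX. Within each treatment the H3RKO arrays were the higher ones, by 0.04 or less after either injection. Without replicate arrays in the injected groups, almost any gene is higher in H3RKO or in WT there. How many of all probe sets share this pattern within treatments was not determined. Tpsb2, a tryptase, ranged from 7.81 in WT untreated 2 to 8.44 in WT CFA+PTX. Its other probe set had a mean of 4.65 and stayed between 4.49 and 4.82. Tpsb2 lies in a cluster of closely related tryptase genes, and signal from its relatives on these probes was not tested.

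**Figure D1:**
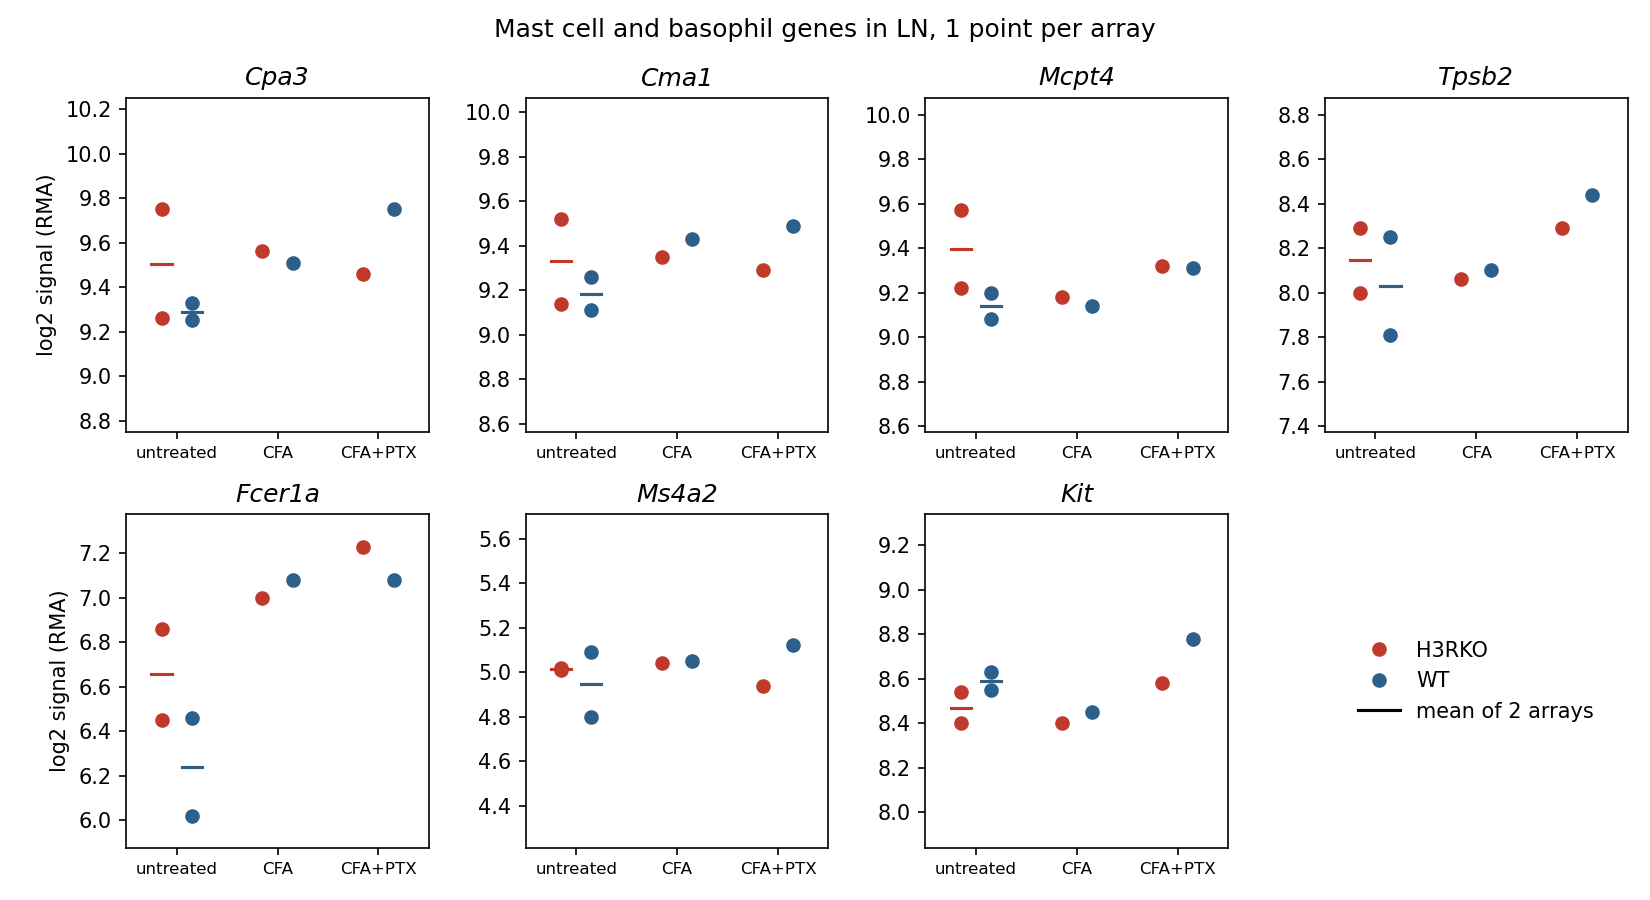
Log2 signal (RMA) of the 7 genes on each of the 8 arrays, by treatment, with H3RKO in red and WT in blue, 1 point per array and bars for the mean of 2 untreated arrays. Each panel spans 1.5 log2 units. Only in Fcer1a do all 4 injected arrays (7.0 to 7.23) lie above all 4 untreated arrays (6.02 to 6.86).

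Fcer1a was the member with the widest range, 1.21 log2 units between WT untreated 1 and H3RKO CFA+PTX. Its log2 signal was 6.45 and 6.86 in H3RKO untreated LN and 6.02 and 6.46 in WT untreated LN. After CFA it was 7.0 in H3RKO and 7.08 in WT. After CFA+PTX it was 7.23 in H3RKO and 7.08 in WT. The 4 injected arrays lay above the 4 untreated ones in both genotypes, and the genotypes overlapped. Its SD over the 8 arrays was 0.42, larger than that of 98.3% of genes and of 96.9% of the 1250 genes at a similar level.

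The chains that assemble with Fcer1a did not separate as widely. Ms4a2 had a log2 signal of 5.01 and 5.02 in H3RKO untreated LN and 5.09 and 4.80 in WT untreated LN. It was 5.04 in H3RKO CFA, 5.05 in WT CFA, 4.94 in H3RKO CFA+PTX and 5.12 in WT CFA+PTX. Of all probe sets, 16.3% had a lower mean than this one, and the files carry no call of signal over background, so a change at this level may not be visible. Fcer1g, which is also used by macrophages and neutrophils, was 11.48 to 11.74 on injected arrays and 11.43 to 11.54 on untreated arrays, with a log2 difference of 0.15 ± 0.06 (SE, adjusted p = 0.454, limma).

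Kit had a log2 signal of 8.40 and 8.54 in H3RKO untreated LN, against 8.63 and 8.55 in WT untreated LN. It was 8.40 in H3RKO CFA and 8.45 in WT CFA. It was 8.58 in H3RKO CFA+PTX and 8.78 in WT CFA+PTX. The H3RKO array or arrays were the lower ones within each treatment, though over all treatments the genotypes overlapped. The injected groups have no replicate array, so almost any gene is lower in H3RKO or in WT there. The share of all probe sets with this pattern within treatments was not determined. On the second Kit probe set, whose mean was 6.98, the genotype difference over all treatments was -0.01 ± 0.13 (SE), against -0.12 ± 0.06 on the first, and in untreated LN it was 0.18 ± 0.15 (SE).

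Differences between groups were estimated with limma on all 22626 probe sets. Over all treatments a call was an adjusted p below 0.05 (Benjamini-Hochberg over all probe sets). Within a treatment, and for the interaction of genotype with treatment, it was the criterion of the study, an unadjusted p below 0.05 and a fold change above 2. The treated groups have 1 array each and were assumed to vary like the untreated pairs. The arrays are separate pools, and within a treatment p-values rest on the spread within the untreated pairs, moderated over all probe sets. Over all treatments the residual spread also holds any interaction of genotype with treatment. For injected against untreated LN it also holds any difference between CFA and CFA+PTX. In whole LN, a change in the number of mast cells cannot be told apart from a change in RNA per cell.

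Of the 7 genes, 0 were called between H3RKO and WT over all treatments, where 0% of probe sets passed. None had an unadjusted p below 0.05 by limma (3.64% of probe sets did) or by the linear model of the methods without moderation. The differences ran from -0.12 to 0.23 with a median of 0.01, and the median of all genes was -0.01. The largest was that of Fcer1a, 6.89 ± 0.33 (SD, n = 4) in H3RKO and 6.66 ± 0.52 (SD, n = 4) in WT LN, a log2 difference of 0.23 ± 0.14 (SE, adjusted p = 0.999, limma). Mcpt4 differed by 0.14 ± 0.09 (SE, adjusted p = 0.999, limma) and Kit by -0.12 ± 0.06 (SE, adjusted p = 0.999, limma). In exact permutation tests over the arrays (two-sided, smallest possible p = 0.0286), p was 0.171 for Kit, 0.2 for Mcpt4 and 0.543 for Fcer1a, and the other 4 genes ranged from 0.771 to 1. Without both gland-poor arrays the differences were 0.08 for Fcer1a, 0.19 for Mcpt4 and -0.07 for Kit. For no member did the H3RKO and WT arrays separate, a pattern that 0.743% of probe sets showed with H3RKO higher and 0.941% with H3RKO lower.

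In untreated LN, 0 of the 7 genes met the criterion of the study, which 0.15% of probe sets did, and 0 had an unadjusted p below 0.05 by limma (5.43% of probe sets) or without moderation. In this comparison 6 of 7 differences were above 0, with a median of 0.14 (all genes -0.02), and Kit was the exception at -0.12 ± 0.10 (SE). Fcer1a differed by 0.42 ± 0.20 (SE, adjusted p = 0.928, limma), Mcpt4 by 0.25 ± 0.14 (SE, adjusted p = 0.928, limma) and Cpa3 by 0.21 ± 0.17 (SE, adjusted p = 0.951, limma). The count depended on which pools were used. Without H3RKO untreated 2, 3 of 7 were above 0, with a median of -0.03, and without WT untreated 2, 4 of 7 were, with a median of 0.19. Without both gland-poor arrays 6 of 7 were above 0, with a median of 0.20. The second H3RKO untreated pool had the lowest difference between 3′ and 5′ control probe sets, 0.164, against 0.186 to 0.439 on the other arrays. The part of RNA quality in these differences was not tested.

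After CFA, 0 of 7 genes met the criterion between H3RKO and WT (0.225% of probe sets), with differences from -0.08 to 0.04. After CFA+PTX, 0 of 7 did (0.362% of probe sets), with a median of -0.18 (all genes -0.03). There Cpa3 was 9.46 in H3RKO and 9.75 in WT, a log2 difference of -0.29 ± 0.24 (SE, adjusted p = 1, limma). In neither treatment had a member an unadjusted p below 0.05 by limma (3.38% of probe sets after CFA and 3.24% after CFA+PTX) or without moderation. The WT CFA+PTX array behind this comparison is the gland-poor one, and this group has 1 array.

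The genotype difference did not itself shift by the criterion for any member after CFA (0 of 7, 0.667% of probe sets) or after CFA+PTX (0 of 7, 0.265% of probe sets), and no member had an unadjusted p below 0.05 in either by limma (5.72% of probe sets for CFA and 2.85% for CFA+PTX) or without moderation. For CFA+PTX all 7 interaction terms were below 0, from -0.50 ± 0.30 (SE) for Cpa3 to -0.08 ± 0.17 (SE) for Kit, with a median of -0.26 against -0.01 over all genes. They share the untreated arrays and the WT CFA+PTX array, which is gland-poor. Without H3RKO untreated 2, 6 of 7 were below 0 and the median was -0.12.

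Injection was the condition along which a member separated. Injected LN, CFA or CFA+PTX, had a mean Fcer1a log2 signal of 7.10 ± 0.10 (SD, n = 4), and untreated LN 6.45 ± 0.34 (SD, n = 4). The log2 difference was 0.65 ± 0.14 (SE), or 1.57-fold. Its unadjusted p was below 0.05 (limma), and it missed the call over all probe sets (adjusted p = 0.211, limma). Of the 12393 genes, 15 had a larger positive difference, and 0.605% had a larger difference in either direction. An exact permutation within genotype gave p = 0.0556 (two-sided), which is the smallest p that 36 relabellings allow. Of the 7 genes, Fcer1a alone had injected arrays entirely above untreated arrays, a pattern of 3.07% of all probe sets, and none lay entirely below, as 2.98% of probe sets did.

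The difference had the same direction in each genotype and after each injection. Against untreated LN, Fcer1a differed by 0.59 ± 0.17 (SE, adjusted p = 0.692, limma) after CFA and by 0.71 ± 0.17 (SE, adjusted p = 0.232, limma) after CFA+PTX. With each array left out in turn the difference between injected and untreated LN lay between 0.52 and 0.77. Without both gland-poor arrays it was 0.51 (adjusted p = 0.416, limma), with 0.46 after CFA and 0.61 after CFA+PTX. The list of dendritic cell markers (5 genes), cells that in mice can carry Fcer1a when inflamed, was 8.73 to 8.81 on injected and 8.81 to 9.13 on untreated arrays. In it Xcr1 and Cd209a were lower on all injected arrays, while Flt3, Itgax and Zbtb46 overlapped. The fibroblast and matrix list (8 genes) was 9.69 to 10.04 on injected and 10.41 to 10.56 on untreated arrays. Its genes Dcn and Pdgfra overlapped between these groups. The other genes of the list were lower on all injected arrays, a pattern of 2.98% of all probe sets. The part of these cells in the Fcer1a difference was not tested.

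**Figure D2:**
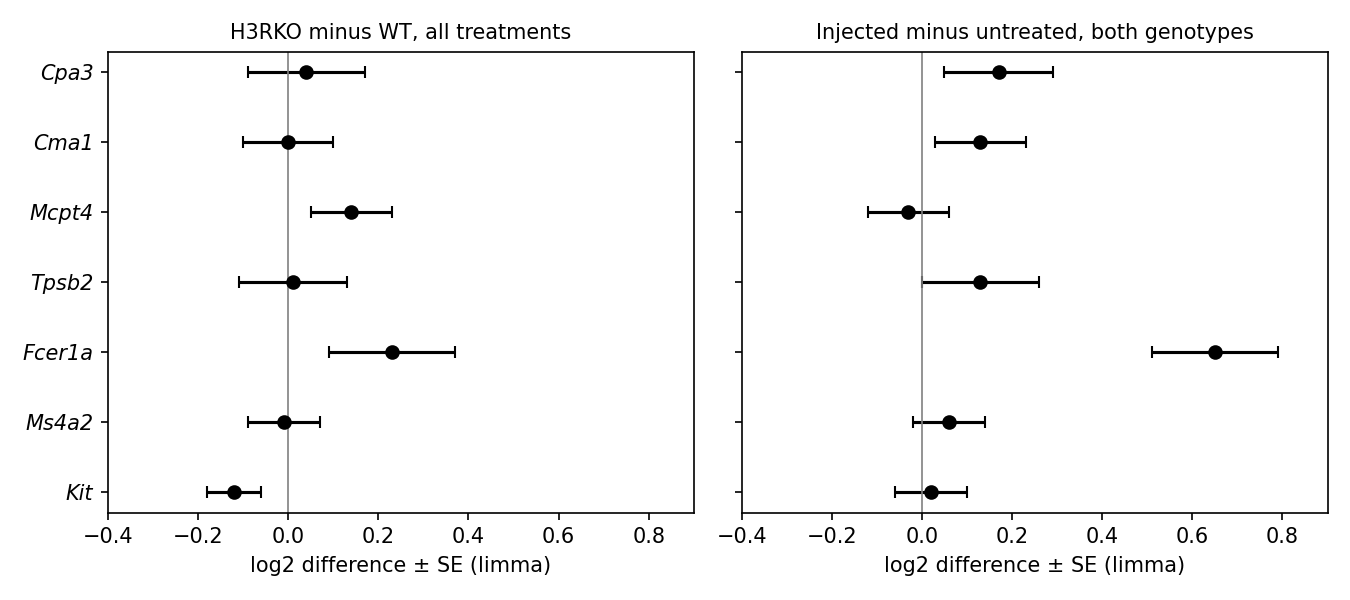
Log2 differences of the 7 genes with their standard errors from limma, H3RKO minus WT over all treatments on the left and injected minus untreated LN over both genotypes on the right. Fcer1a stands at 0.65 ± 0.14 on the right, and the other 6 genes lie between -0.03 and 0.17 there.

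The other members shifted less. Between injected and untreated LN, 0 of the 7 genes were called (0.0265% of probe sets), with 1, Fcer1a, at an unadjusted p below 0.05 by limma, as 10.7% of probe sets were, and by the model without moderation. Cpa3 averaged 9.57 ± 0.13 (SD, n = 4) in injected and 9.40 ± 0.24 (SD, n = 4) in untreated LN, a log2 difference of 0.17 ± 0.12 (SE, adjusted p = 0.659, limma), and Cma1 differed by 0.13 ± 0.10 (SE, adjusted p = 0.674, limma). Without both gland-poor arrays these differences were 0.06 for Cpa3 and 0.05 for Cma1. Mcpt4, Tpsb2, Ms4a2 and Kit lay between -0.03 and 0.13. The median of the 7 was 0.13 and that of all genes 0.01.

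By injection, 0 of 7 genes were called for CFA against untreated LN (0% of probe sets) or for CFA+PTX against untreated LN (0% of probe sets). At an unadjusted p below 0.05 limma gave Fcer1a in both (6.25% of probe sets for CFA and 12.3% for CFA+PTX), and the model without moderation gave it for CFA+PTX alone. For CFA+PTX 7 of 7 differences were above 0, from 0.05 to 0.71 with a median of 0.15 (all genes 0.01). This count rested on the WT CFA+PTX array, without which 3 of 7 were above 0. For CFA+PTX against CFA, 0 of 7 genes were called (0% of probe sets), and Kit alone had an unadjusted p below 0.05, by limma (5.47% of probe sets) and without moderation. Kit was 8.58 and 8.78 after CFA+PTX and 8.40 and 8.45 after CFA, a log2 difference of 0.26 ± 0.08 (SE, adjusted p = 0.891, limma). The untreated arrays (8.40 to 8.63) overlapped with both groups. The difference was 0.20 (adjusted p = 1, limma) without the gland-poor arrays, where its unadjusted p was no longer below 0.05, nor was it without WT CFA (0.21). On the second Kit probe set it was 0.18 ± 0.18 (SE, adjusted p = 0.941, limma), and the arrays overlapped (6.88 and 7.28 after CFA+PTX, 6.89 and 6.91 after CFA).

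The signals of 2 proteases ran closely together. Over the 8 arrays Cpa3 and Cma1 had r = 0.96 (exact permutation p = 0.000967, two-sided) and a rank correlation of 0.98 (exact permutation p = 0.000397, two-sided), both unadjusted and the highest of 21 pairs of members. Without the 2 arrays farthest from the Cpa3 median r was 0.92, and without the gland-poor arrays 0.94. By r, Cma1 was the second closest of all genes to Cpa3, while Fcer1a had rank 288 with Cpa3 and rank 194 with Cma1. Fcer1a ran with Cpa3 at r = 0.71 (exact permutation p = 0.0521, two-sided, rho = 0.60, exact permutation p = 0.132) and with Cma1 at r = 0.74 (exact permutation p = 0.0408, two-sided, rho = 0.62, exact permutation p = 0.115), and without the 2 farthest arrays at 0.88 and 0.71. Mcpt4 had r = 0.63 with Cpa3 (exact permutation p = 0.082, two-sided, rho = 0.40, exact permutation p = 0.327), and 0.02 without H3RKO untreated 2 and WT CFA+PTX. Other pairs reached similar values. Tpsb2 and Ms4a2 had r = 0.71 (exact permutation p = 0.0489, two-sided, rho = 0.50, exact permutation p = 0.216), and -0.20 without WT untreated 2 and WT CFA+PTX. Mcpt4 and Tpsb2 had r = 0.66 (exact permutation p = 0.0707, two-sided, rho = 0.74, exact permutation p = 0.0458). The points share the arrays and their normalization.

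**Figure D3:**
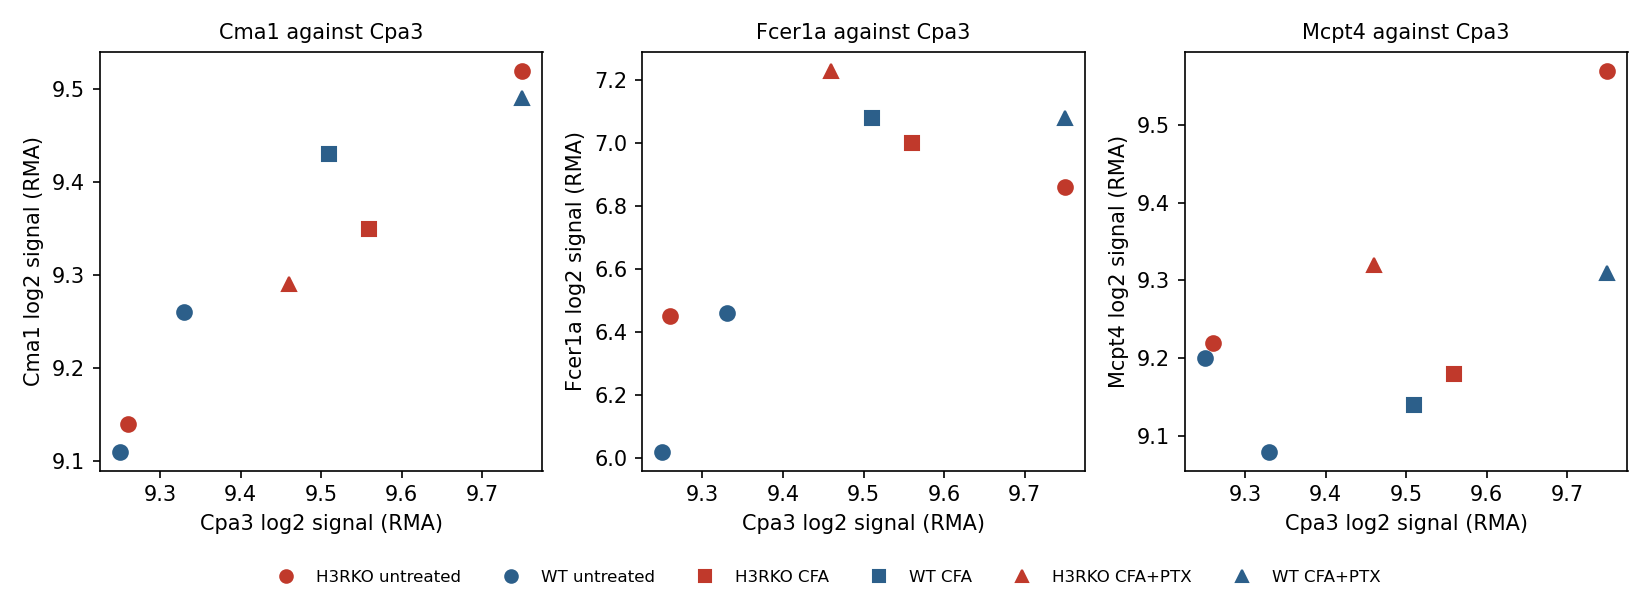
Log2 signal (RMA) of Cma1, Fcer1a and Mcpt4 against that of Cpa3, 1 point per array, with genotype by colour and treatment by shape. Cma1 rises along Cpa3 (r = 0.96), while Mcpt4 is high with Cpa3 mainly on the H3RKO untreated 2 array (9.57).

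The genes most like the mean of Cpa3, Cma1, Mcpt4 and Tpsb2, each centred, were the kinase Mapk8 (r = 0.96), Plekha5 (r = 0.953), the kinase Sgk3 (r = 0.918), the copine Cpne3 (r = 0.918) and the chromatin factor Dpf2 (r = 0.915), out of 6192 genes brighter than the median and over 8 arrays. Their log2 signals varied by 0.09 to 0.30 only, less than the 0.41 to 0.63 of the proteases. In so few arrays a search over so many genes can give high correlations by itself, and these are a description.

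Other genes of these cells were described from 4 lists of 58 genes, of which 46 were measured. Between 0% and 0.667% of all probe sets were called, depending on the comparison. For these lists, genes at an unadjusted p below 0.05 are counted only between injected and untreated LN. Of 15 other mast cell genes, 1 was called in any comparison, by genotype after CFA+PTX (0.362% of probe sets) and for that interaction (0.265% of probe sets). This was Ctsg, the granule protease cathepsin G of mast cells and neutrophils, at 8.08 in H3RKO CFA+PTX and 6.62 in WT CFA+PTX. It was 2.75-fold higher, a log2 difference of 1.46 ± 0.12 (SE, adjusted p = 0.135, limma), and its interaction term was 1.35 ± 0.15 (SE, adjusted p = 0.452, limma). The neutrophil granule genes Elane (8.18 and 6.91), Mpo (7.82 and 5.89) and Prtn3 (8.24 and 6.98) were also higher in H3RKO than in WT CFA+PTX LN, and the part of neutrophils in the Ctsg difference was not tested. Srgn, the proteoglycan core that stores granule proteases in many leukocytes, Ndst2, which sulfates heparin, and Ltc4s, which makes leukotriene C4, were the brightest of the list and were not called. Other CFA+PTX interaction terms of this list missed the fold change of the call. Among them were Hpgds (-0.87 ± 0.30, SE), Hdc (-0.66 ± 0.25, SE), Tph1 (-0.53 ± 0.17, SE) and Ndst2 (-0.40 ± 0.14, SE). Ptger3 (0.37 ± 0.19, SE) and Ltc4s (0.31 ± 0.33, SE) were among those above 0. All share the gland-poor WT CFA+PTX array.

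Hdc, the enzyme that makes histamine, was 7.40 and 7.06 in H3RKO untreated LN and 6.56 and 6.36 in WT untreated LN. The log2 difference was 0.78 ± 0.14 (SE, adjusted p = 0.916, limma), below a 2-fold change. After CFA it was 6.69 in H3RKO and 6.59 in WT, and after CFA+PTX 6.86 in H3RKO and 6.75 in WT. Neutrophils can make Hdc too, and the mean of their list was higher on the same H3RKO arrays (8.20 and 8.04, against 7.41 and 7.59 in WT untreated LN). In that list S100a8, S100a9, Ngp, Camp, Ltf and Lcn2 were higher on them. Prtn3 was lower (6.24 and 6.53, against 6.66 and 6.85). Elane was not higher (6.52 and 6.71, against 6.71 and 6.87), and Mpo overlapped. The mean of the neutrophil list was highest in H3RKO CFA+PTX LN (9.0), where Hdc was 6.86. There Mpo (7.82), Elane (8.18), Prtn3 (8.24), Ngp, Ltf and Lcn2 were above both H3RKO untreated arrays. S100a8 (11.09, against 10.94 and 10.81) and S100a9 (10.83, against 10.79 and 10.68) were close to them. Camp (8.06, against 8.23 and 7.57) lay between them. The part of neutrophils in the Hdc difference was not tested. Il33, an alarmin of stromal cells that activates mast cells, was 11.36 and 11.08 in H3RKO untreated LN and 10.68 and 10.75 in WT untreated LN (0.51 ± 0.12, SE, adjusted p = 0.916, limma). Hdc, Hpgds, Tph1, Ptger3, Gata1, Mcpt8, Pik3cd, Prkcd, Kitl and the other marker genes were named after their values were seen.

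**Figure D4:**
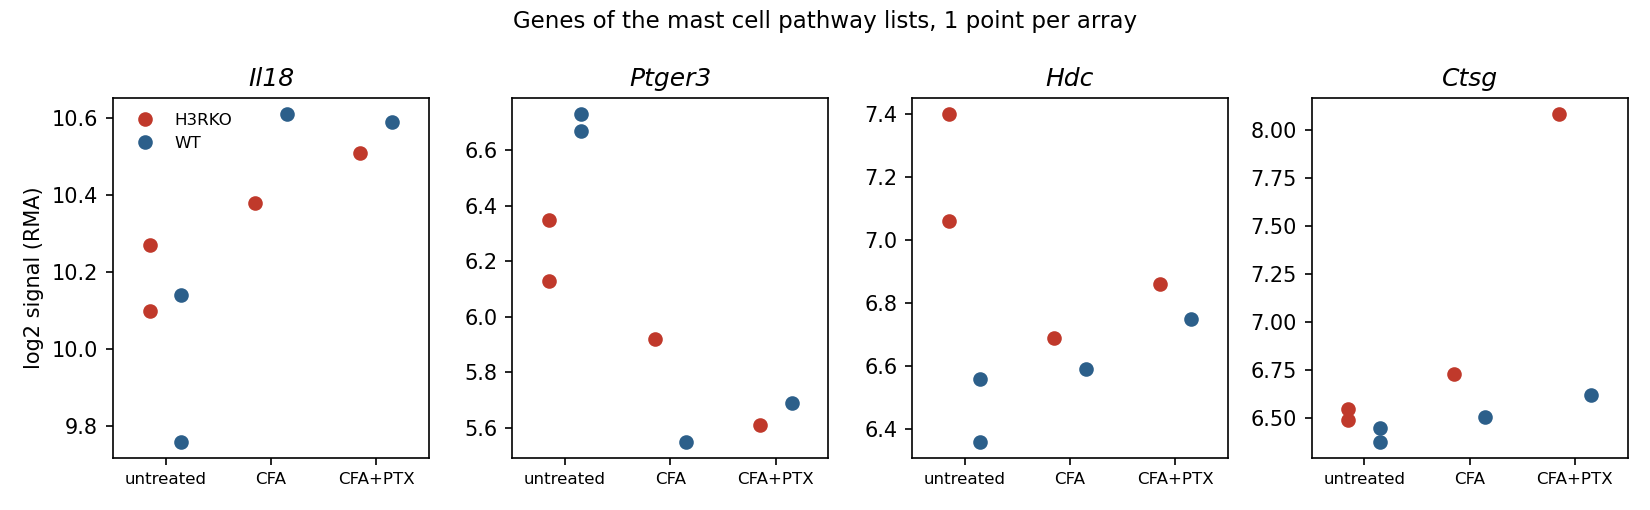
Log2 signal (RMA) of Il18, Ptger3, Hdc and Ctsg by treatment, 1 point per array, H3RKO in red and WT in blue, each panel on its own scale. Il18 is higher and Ptger3 lower on all 4 injected arrays, Hdc is highest on the 2 H3RKO untreated arrays and Ctsg stands out on the H3RKO CFA+PTX array (8.08).

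Along injection, 4 of the 46 listed genes had injected arrays entirely above untreated ones and 1 entirely below, patterns of 3.07% and 2.98% of all probe sets. Il18, a cytokine that acts on mast cells and basophils, was 10.38 to 10.61 in injected and 9.76 to 10.27 in untreated LN (0.46 ± 0.11, SE, adjusted p = 0.263, limma). Ptger3, a prostaglandin E2 receptor, was 5.55 to 5.92 in injected and 6.13 to 6.73 in untreated LN (-0.78 ± 0.13, SE, adjusted p = 0.146, limma). Syk, the kinase that the gamma chain recruits, was 12.06 to 12.28 in injected and 11.85 to 12.03 in untreated LN (0.22 ± 0.06, SE, adjusted p = 0.327, limma). The others were the lipid kinase Pik3cd and the transcription factor Gata1. By genotype 1 of the 46 separated, a pattern of 0.743% of probe sets with H3RKO higher and 0.941% with H3RKO lower. This was Prkcd, a protein kinase C, at 10.91 to 11.06 on H3RKO arrays and 11.07 to 11.17 on WT arrays.

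Of 9 basophil genes, 0 were called in any comparison, where 0% to 0.667% of all probe sets were. Between injected and untreated LN 1, Gata1, had an unadjusted p below 0.05 (limma), as 10.7% of all probe sets did. Mcpt8, a protease specific to basophils, was 4.40 to 4.84 on injected and 4.29 to 4.67 on untreated arrays, near the dim end where 12% of probe sets lie lower. Cytokine receptor chains Csf2rb and Csf2rb2 and the transcription factor Cebpa were the brightest and are shared with other myeloid cells. Of 15 genes of IgE receptor signalling, among which Syk, Fcer1g and the phosphatase Inpp5d were the brightest, 0 were called (0% to 0.667% of probe sets). Between injected and untreated LN 3 had an unadjusted p below 0.05 (limma, 10.7% of all probe sets), with differences from -0.20 to 0.22 and a median of 0.04. Of 7 growth factors and alarmins that act on mast cells, with Tgfb1, Il33 and Il18 the brightest, 0 were called (0% to 0.667% of probe sets). Of these, 1, Il18, had an unadjusted p below 0.05 between injected and untreated LN (limma, 10.7% of all probe sets). Kitl, the ligand of Kit, lay between 9.88 and 10.25 on all arrays.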

How the data were processed

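LN RNA of 8 pools was hybridized by the authors to Affymetrix mouse arrays. The authors corrected the background, normalized the intensities and condensed them to 1 value a probe set by RMA (Robust Multichip Average). The deposited table is in log2 units (2.42 to 14.40). No step before these values was repeated, and depth does not apply to arrays, whose number limits the precision. Of 22690 probe sets, 64 control probe sets were left out, and 20380 of those tested were annotated to 1 gene, 691 to several and 1555 to none. A gene stands on its brightest probe set. Groups came from the sample labels, and those of the CFA+PTX arrays from the descriptions, since the titles name PTX alone. Models were fitted with limma 3.58.1 in R 4.3.3 (lmFit, eBayes): a mean for each of 6 groups (2 residual degrees of freedom) for the genotype within a treatment and for interactions, genotype plus treatment (4) for the effects over all arrays, and genotype plus injection (5). The models were tested on simulated data. Permutation tests and correlations used scipy in Python, and promoters came from RefSeq. The members, the lists and the alternatives were chosen with earlier results of these data known. Named genes were all members, genes of the 4 lists that passed a call and the brightest 3 of each list, the 5 genes most like the protease mean, and others where stated. The alternatives were an unmoderated linear model as in the methods, robust fitting with an intensity trend, a further quantile normalization, arrays centred on their medians, filters on dim and on cross-hybridizing probe sets, the mean of a gene's probe sets, a replicate block, the untreated arrays alone and each array left out. Leaving out both gland-poor arrays was added after seeing the data. Other cell types served as marker lists.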

Additional observations from a re-analysis of the deposited data

How the results depend on the processing

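In 10 comparisons and 18 alternative settings, the count of called members was 0 in every one, and no member gained or lost a call. The lowest adjusted p of a member under any setting was 0.145 (limma). Of 70 member differences, 26 changed sign under at least 1 setting, none of them larger than 0.21 in size. Of the 16 member differences given by gene from the models, those of Kit and Cpa3 in untreated LN changed sign. Kit was at 0.03 with the mean of its probe sets. Cpa3 was at -0.04 without H3RKO untreated 2, and its values with each array left out ran from -0.04 to 0.46. The 8 differences given with an adjusted p for listed genes changed neither sign nor call. The untreated pools share replicate numbers 1 and 2 between genotypes, but nothing in the labels ties them, and the differences between replicates 1 and 2 correlated at 0.12 over all probe sets. With these numbers as a replicate block, Fcer1a differed between injected and untreated LN by 0.65 (adjusted p = 0.146, limma), against 0.151 to 0.524 under the other settings, and 0 members were called. Limits: treated groups have 1 pool each, WT CFA+PTX and WT untreated 1 stand apart in gland genes, and the files hold no call of signal over background, which matters most for Ms4a2.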
